A study of Homo sapiens with 4 samples.

Results

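The genes described here are 9 of the 20323 genes in the deposited table, ILF2, DHX9, STAU1, STAU2, DROSHA, DGCR8, DICER1, TARBP2 and PRKRA. They were taken by symbol because their products bind double-stranded RNA or process microRNAs and so share substrates with the editing enzyme ADAR1. The rule itself uses no measured value. Each matched 1 Ensembl identifier, and all 9 passed the filter on low counts. The libraries came from NK-92, a human natural killer cell line grown with 100 IU/ml interleukin 2. Of the 4 libraries, 2 were from NK scramble cells (treatment shscramble), which carried a lentiviral control hairpin, and 2 from NK shADAR1 cells (treatment shADAR1), which carried a hairpin against ADAR1. Cells of both groups were transduced, and the line is a single tumor-derived line. The study names its hairpins shADAR1-1 and shADAR1-2 and names the second for this experiment. The sample labels carry the same numbers, which are read here as replicates because the design describes 2 biological replicates.

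Double-stranded RNA in human cells is held by a family of proteins that recognize its shape more than its sequence. ADAR1 converts adenosine to inosine in such RNA, Staufen proteins carry or destabilize transcripts that contain it, and DHX9 unwinds it. MicroRNAs are made from the same kind of structure: DROSHA with DGCR8 cuts a hairpin out of the primary transcript in the nucleus, exportin 5 carries it to the cytoplasm, and DICER1 with its partners TARBP2 and PRKRA cuts it to the mature length. Hairpins delivered by a lentivirus enter this route at the exportin and DICER1 steps.

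The strand of each study hairpin that is complementary to ADAR is shown because it passes through the enzymes described here, with bases 2 to 8, the seed that leads target pairing, in capitals.
shADAR1-1: aCACCCGGagactgccagtgc
shADAR1-2: tGCACTTCctcgggacacggc
Each has 21 bases, and its full complement was found in 3 GENCODE release 29 transcripts, all of ADAR. In the coding transcripts of the 9 genes, the longest run shared with either target was 9 bases. The site that pairs with the shADAR1-1 seed, CCGGGTG on the transcript strand, was in no coding transcript of the 9 genes, against 18.1% of 19542 genes searched. The site for the shADAR1-2 seed, GAAGTGC, was in at least 1 coding transcript of ILF2, DHX9, DICER1 and DROSHA, against 23.7% of all genes searched. The scramble hairpin carried by the control libraries was not searched. A match of these letters is a description and not a site shown to be used.

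Of the 9 genes, DGCR8 and DICER1 also hold microRNAs. Their mature sequences (RefSeq, GRCh38.p14) are shown, seed in capitals, because they tie these genes to the products of their own pathway.
hsa-miR-3618: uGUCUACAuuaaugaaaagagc
hsa-miR-1306-5p: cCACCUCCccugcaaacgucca
hsa-miR-1306-3p: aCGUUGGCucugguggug
hsa-miR-3173-5p: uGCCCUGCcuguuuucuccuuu
hsa-miR-3173-3p: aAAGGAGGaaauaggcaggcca
The first lies on the plus strand of chromosome 22 from 20085797 to 20085818, in exon 2 of 3 DGCR8 transcripts and outside their coding sequence. The pair from MIR1306 spans 20086072 to 20086093 and 20086112 to 20086129, inside the coding sequence of 4 DGCR8 transcripts. The pair from MIR3173 is in an intron of DICER1 on chromosome 14, minus strand, at 95137961 to 95137982 and 95137923 to 95137944. The microRNAs themselves were not measured here, since the libraries were made from oligo(dT)-selected RNA, and none of the 3 microRNA genes is listed in the table.

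The deposited estimated counts summed to between 37881704 and 39960491 per library. CPM below means counts scaled to a common library size by TMM (edgeR), and FPKM is the deposited value per transcript length and library size. All 9 NK markers fixed for the analysis were above 1 FPKM in every library, with 154 to 202 FPKM for NCAM1. Of 12 markers of other lineages, 10 were under 1 FPKM in every library, 3 of them at 0. The remaining markers were TRAC, a T cell receptor gene, at 104 to 139 FPKM, and CD79A, a B cell gene, at 0.501 to 2.36 FPKM. ADAR, the targeted gene, had 655 and 682 CPM in the control libraries and 575 and 482 CPM in the knockdown libraries. Its log2 fold change was -0.34 with a standard error of 0.20, and it did not pass the test (edgeR, adjusted p = 1.00). Both knockdown libraries were below both controls, and every comparison below is between groups with this difference in ADAR. The study reports that it checked the ADAR1 knockdown in NK-92 cells by qRT-PCR and western blotting, which are not part of these libraries. In bulk RNA, fewer cells that express a gene and less of its RNA per cell cannot be told apart.

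In the NK-92 cells, levels per transcript length spanned a wide range. ILF2 was highest, with a mean of 236 ± 21.2 FPKM (SD, n = 4 libraries of both groups), above 97.4% of tested genes. DHX9 followed with 65.2 ± 14.4 FPKM and STAU1 with 49.5 ± 3.68 FPKM, and the values of these 2 genes overlapped. STAU2 (25.2 ± 5.06 FPKM), PRKRA (23.0 ± 1.42 FPKM) and DROSHA (22.1 ± 2.59 FPKM) formed a middle group whose neighbors overlapped. TARBP2 (14.3 ± 0.636 FPKM), DGCR8 (12.9 ± 1.02 FPKM) and DICER1 (8.70 ± 2.33 FPKM) were lowest, and again each overlapped its neighbor over the libraries. Within every single library, however, TARBP2 was above DGCR8 and DGCR8 above DICER1. At 3 steps in this order the libraries did not overlap. They were ILF2 over DHX9 (3.62-fold in mean FPKM), STAU1 over STAU2 (1.96-fold) and DROSHA over TARBP2 (1.54-fold). DICER1, the enzyme, was listed lower per length than both of its partners in all 4 libraries, with at most 12 FPKM against at least 13.7 FPKM for TARBP2 and 21.3 FPKM for PRKRA.

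The first question was whether these RNAs changed with the ADAR1 hairpin. None of the 9 genes was called, which required a change of 1.5-fold or more and an adjusted p below 0.05 (edgeR's quasi-likelihood test, Benjamini-Hochberg over 11810 genes), and the share called among all tested genes was also 0%. At an unadjusted p under 0.05, 0 of the 9 genes passed, against 2.48% of all tested genes (293), and DESeq2 gave 0 of the 9 as well. With the fold change and adjusted p thresholds above, DESeq2 called 0 of 15605 genes, and its smallest adjusted p was 0.146. The study, which also used DESeq2, reports differentially expressed genes in its knockdown cells at the same thresholds. The reason for this difference was not tested. Log2 fold changes ran from -0.13 for STAU1 to 0.34 for DICER1, 4 higher and 5 lower, with a median of -0.018 beside 2.8e-05 over all tested genes. In CPM, the groups did not overlap in 3 of the 9 genes, where 26% of tested genes showed this. STAU2 was higher (13.3% of tested genes), and STAU1 and PRKRA were lower (12.6%). In FPKM, STAU1 and PRKRA overlapped between groups and STAU2 did not.

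**Figure D1:**
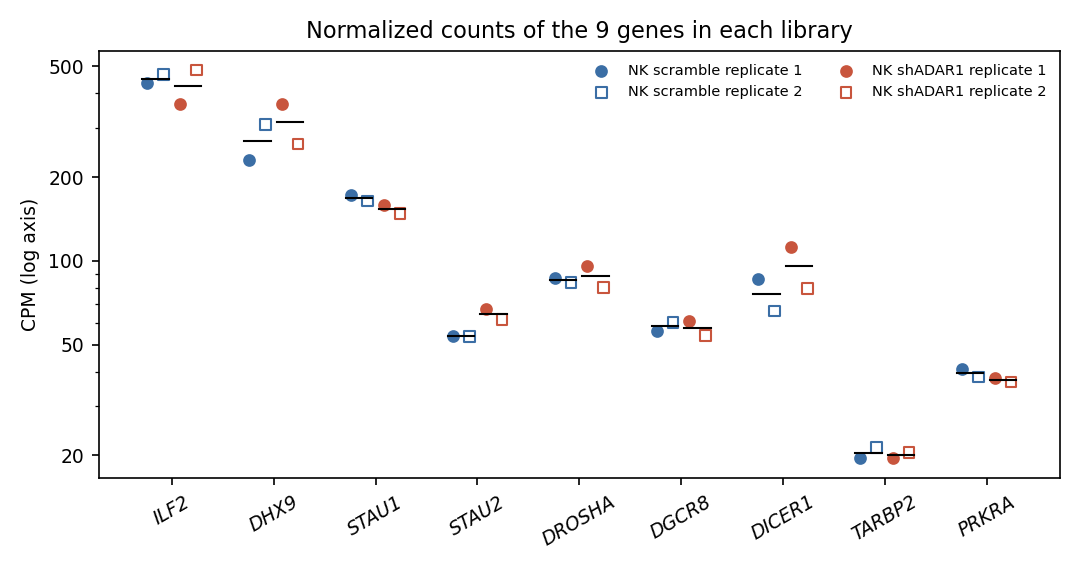
CPM of the 9 genes on a log axis. Each point is 1 library, blue for NK scramble and red for NK shADAR1, circles for replicate 1 and squares for replicate 2, and bars are group means. The groups are apart for STAU1, STAU2 and PRKRA, and DHX9 and DICER1 show the widest spread within groups.

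Among the proteins that hold double-stranded RNA, ILF2 (ENSG00000143621, minus strand of chromosome 1 from 153661788 to 153671048) encodes NF45, a subunit of a complex that binds structured RNA. Positions are those of GENCODE release 29 on GRCh38, since no build is given for the deposited table. ILF2 had 437 and 466 CPM in the control libraries and 367 and 484 CPM in the knockdown libraries. Its lowest and highest values were both in knockdown libraries. The log2 fold change was -0.087 with a 95% interval from -0.56 to 0.38.

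DHX9 (ENSG00000135829, plus strand of chromosome 1 from 182839369 to 182887751), the RNA helicase that unwinds double-stranded RNA, had 231 and 309 CPM in control and 365 and 263 CPM in knockdown cells. The groups overlapped, and the gaps between replicates, 0.42 and 0.47 on the log2 scale, were both larger than the log2 fold change of 0.22 (95% interval -0.30 to 0.74). Without NK shADAR1 replicate 1 this value was -0.035, and without NK scramble replicate 1 it was 0.020.

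Neither Staufen gene passed the test. STAU1 (ENSG00000124214, minus strand of chromosome 20 from 49113339 to 49188367) is the broadly expressed form that directs bound transcripts to decay. It had 172 and 164 CPM in control and 159 and 148 CPM in knockdown libraries. Its knockdown values in CPM were the lower ones in every pairing of libraries. The log2 fold change of STAU1 was -0.13 with a 95% interval from -0.54 to 0.29. In FPKM its groups overlapped, with 52.8 and 49.8 in control and 51 and 44.3 in knockdown libraries. STAU2 (ENSG00000040341, minus strand of chromosome 8 from 73420369 to 73747708), its paralog best known from RNA transport in neurons, had 53.8 and 53.4 CPM in control and 67.0 and 61.4 CPM in knockdown libraries. Both knockdown libraries stood above both controls, which differed by only 0.013 on the log2 scale. The log2 fold change was 0.26 with a standard error of 0.19 (edgeR, unadjusted p = 0.206, adjusted p = 1.00), and the interval from -0.17 to 0.69 covers a 1.61-fold rise as well as a small fall. STAU2 stayed between 0.20 and 0.32 with any 1 library left out. On the FPKM scale its difference was larger, as given below.

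At the nuclear cutting step both genes overlapped between groups. DROSHA (ENSG00000113360, minus strand of chromosome 5 from 31400497 to 31532196), the nuclease, had 86.4 and 83.6 CPM in control and 95.8 and 80.2 CPM in knockdown libraries. DGCR8 (ENSG00000128191, plus strand of chromosome 22 from 20080232 to 20111877), its RNA-binding partner, had 56.1 and 60.1 CPM in control and 60.8 and 54.0 CPM in knockdown libraries. In both genes the knockdown libraries lay on both sides of the controls. Log2 fold changes were 0.050 (95% interval -0.39 to 0.49) for DROSHA and -0.018 (-0.45 to 0.42) for DGCR8. A change of 1.5-fold in either direction lies outside both intervals.

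At the cytoplasmic step, DICER1 (ENSG00000100697, minus strand of chromosome 14 from 95086228 to 95158010) had the largest log2 fold change of the 9 genes in the edgeR fit of all 4 libraries. STAU2 was larger in FPKM with limma (0.40 against 0.35 with a pseudocount of 1), with length fitted out (0.26 against 0.19) and without NK shADAR1 replicate 1 (0.20 against 0.071), and STAU2 (0.25) and DHX9 (0.44) were larger without NK scramble replicate 2 (0.16 for DICER1). It had 85.7 and 66.1 CPM in control and 112 and 79.6 CPM in knockdown libraries. NK shADAR1 replicate 1 was the high library, and replicate 2 lay between the controls. The log2 fold change was 0.34 with a standard error of 0.23 and a 95% interval from -0.18 to 0.86 (edgeR, unadjusted p = 0.178, adjusted p = 1.00). Leaving out NK shADAR1 replicate 1 gave 0.071, and leaving out NK scramble replicate 2 gave 0.16. It was 0.56 without NK shADAR1 replicate 2 and 0.54 without NK scramble replicate 1. The double-stranded RNA-binding partners of DICER1 did not pass the test either. TARBP2 (ENSG00000139546, plus strand of chromosome 12 from 53500921 to 53506431), which helps pass the cut RNA to Argonaute, had 19.5 and 21.3 CPM in control and 19.6 and 20.5 CPM in knockdown libraries, the latter inside the range of the former. PRKRA (ENSG00000180228, minus strand of chromosome 2 from 178431414 to 178451512) encodes PACT, a DICER1 partner that also activates the kinase PKR. It had 41.0 and 38.3 CPM in control and 37.9 and 36.7 CPM in knockdown libraries, with both knockdown values just under the lower control. In FPKM the groups of PRKRA overlapped (24.6 and 22.4 against 23.5 and 21.3). Log2 fold changes were -0.026 for TARBP2 (95% interval -0.48 to 0.43) and -0.088 for PRKRA (-0.52 to 0.34).

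**Figure D2:**
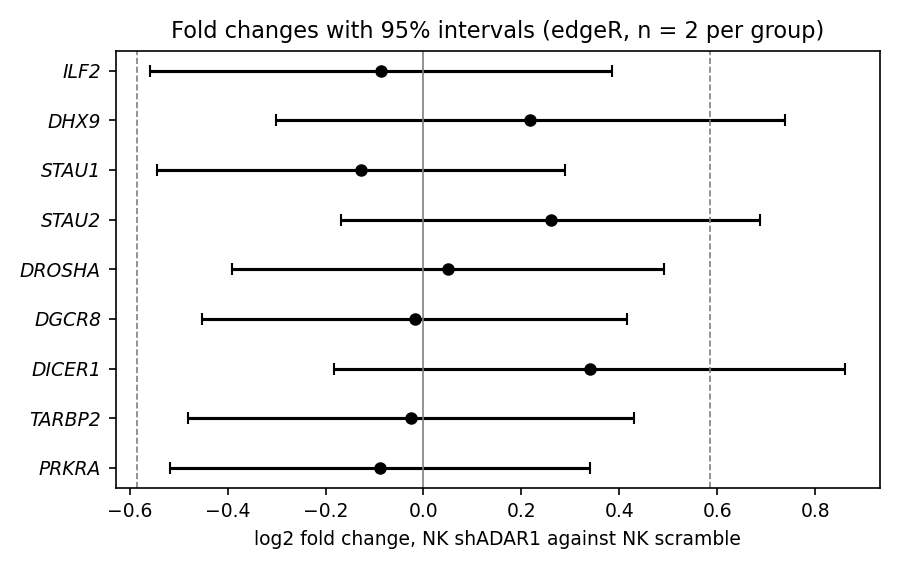
Log2 fold change of each gene in NK shADAR1 against NK scramble cells, with its 95% interval from edgeR's quasi-likelihood fit (2 libraries per group). Dashed lines mark a fold change of 1.5 in either direction. All 9 intervals include 0, and those of DHX9, STAU2 and DICER1 extend past the upper dashed line.

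The 4 genes that carry the shADAR1-2 seed site were ILF2, DHX9, DICER1 and DROSHA. Of these, ILF2 alone had a log2 fold change below 0 in the fit of all 4 libraries. Without NK shADAR1 replicate 1 the values were 0.1 for ILF2, -0.035 for DHX9, 0.071 for DICER1 and -0.082 for DROSHA. Without NK shADAR1 replicate 2 they were -0.3 for ILF2, 0.43 for DHX9, 0.56 for DICER1 and 0.17 for DROSHA. Whether the seed site affects these genes was not tested. The library kit named in the protocol does not mark strand, so reads of overlapping genes cannot be told apart by strand. The spans of ILF2 and SNAPIN, of PRKRA and PJVK, of DGCR8 and TRMT2A, of STAU2 and STAU2-AS1, and of DICER1 and DICER1-AS1 overlap on opposite strands. Other annotated genes overlap too, among them AC023509.4, antisense to TARBP2. AC022826.2, a protein-coding gene, overlaps STAU2 on the same strand.

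The next question was whether the balance within each protein pair differed, which can be read inside a library and so does not depend on depth. Of 5 pairs compared by FPKM, 2 had groups that did not overlap. If libraries were assigned to groups at random, a pair would show this 1 time in 3, so the count is a description only. STAU1 to STAU2 was 2.51 and 2.26 in control and 1.58 and 1.74 in knockdown libraries, a difference of -0.52 on the log2 scale beside a spread of 0.10 within groups (SD). This ratio was lower in both knockdown libraries, and its difference lay between -0.60 and -0.44 with any 1 library left out. With CPM in place of FPKM it was -0.39. DICER1 to PRKRA was 0.341 and 0.293 in control and 0.511 and 0.367 in knockdown libraries, a log2 difference of 0.45 with a spread of 0.26. It was 0.21 without NK shADAR1 replicate 1. The other 3 pairs overlapped, and DROSHA to DGCR8 had the smallest spread among them, with 1.76 and 1.60 in control and 1.82 and 1.67 in knockdown libraries. Exact two-sided permutation tests of 2 libraries against 2 cannot give a p under 1 in 3, the value of both pairs that did not overlap, and the adjusted p over the 5 pairs was 0.833 for each of them.

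**Figure D3:**
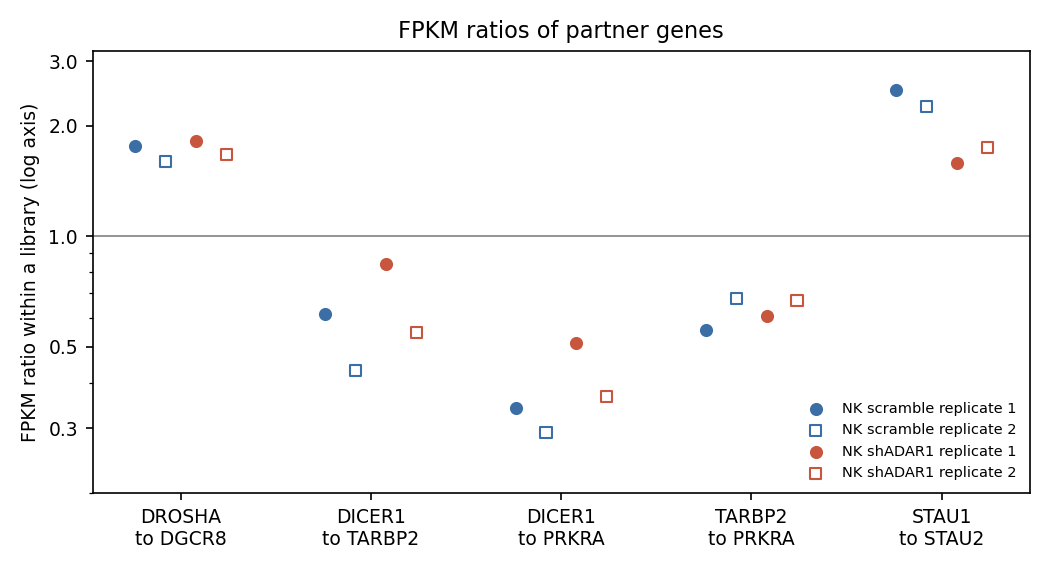
FPKM of the first gene divided by that of the second within each library, on a log axis. Points and colors stand for libraries as labeled, and the line marks equal FPKM. STAU1 to STAU2 sits at 2.51 and 2.26 in the control libraries, above the 1.58 and 1.74 of the knockdown libraries, and DROSHA to DGCR8 stays between 1.60 and 1.82.

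Dividing a deposited count by its FPKM and the library total returns the mean transcript length that the authors' program assigned to a gene in that library, which moves when the estimated mix of isoforms moves. This readout was added after the data were seen. For DHX9 it was 4493 nt in all 4 libraries, and for ILF2 it was 1851 to 1852 nt. STAU2 varied most, with 2584 and 2374 nt in control and 2156 and 2332 nt in knockdown libraries. Both knockdown values were the shorter ones, with a log2 difference of -0.14, and 10.7% of 11761 genes had a difference at least as large. GENCODE lists 17 coding STAU2 transcripts of 550 to 4061 nt. These need not be the lengths behind the deposited values, since for DHX9 it lists 1 coding transcript, of 4240 nt. By construction the shorter length raises FPKM, and the log2 difference of STAU2 was 0.41 in FPKM (21.0 and 22.1 against 32.3 and 25.5 FPKM) and 0.26 in counts. DICER1 (10305 and 9885 against 9715 and 9852 nt) and PRKRA (1681 and 1683 against 1674 and 1664 nt) were also shorter in both knockdown libraries, by much less. In all, 3 of the 9 genes had groups apart by more than 0.1% of length, against 21.7% of genes. Which isoforms account for the shorter STAU2 mean cannot be read from values per gene.

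The 9 genes differ greatly in length, from a mean of 1409 nt for TARBP2 to 9939 nt for DICER1, and in 1 library their deviations followed it. In NK shADAR1 replicate 1, the deviation from the control mean was 0.58 for DICER1, 0.45 for DHX9 and -0.30 for ILF2 on the log2 CPM scale. Over the 9 genes it correlated with log2 length at r = 0.75, and in NK shADAR1 replicate 2 at r = -0.036. Over all 11810 tested genes the same correlations were 0.16 and -0.086. These are descriptions over genes that share their libraries. With length fitted out of each library, the log2 fold change of DICER1 was 0.19 and that of DHX9 0.15, while that of STAU2 stayed at 0.26.

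**Figure D4:**
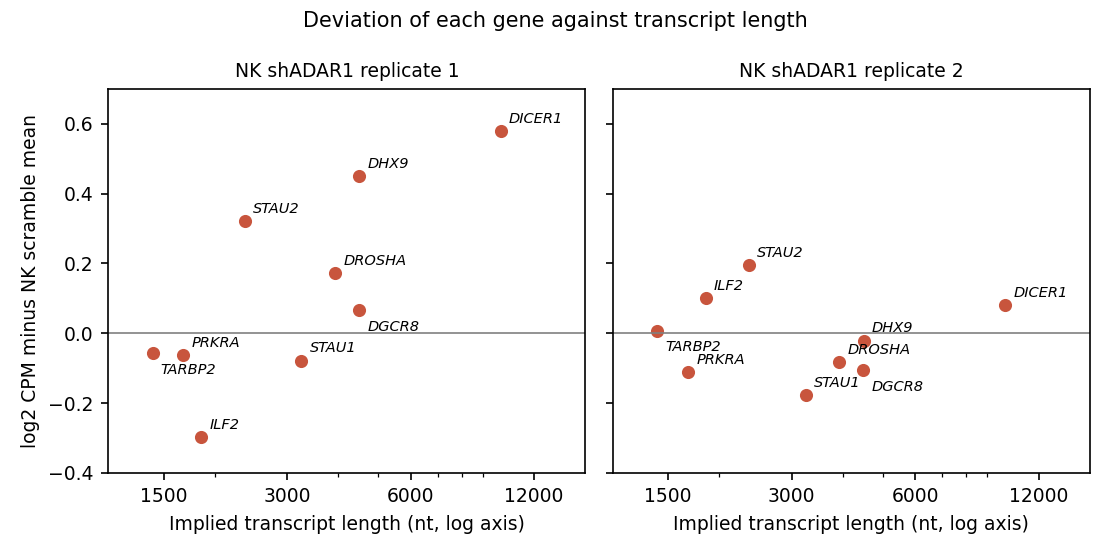
Log2 CPM of each gene minus its NK scramble mean, against its implied transcript length on a log axis, in NK shADAR1 replicates 1 (left) and 2 (right). DICER1 and DHX9 are the highest points in replicate 1 at 0.58 and 0.45, and the genes show no such order in replicate 2.

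DICER1, as the gene with the largest log2 fold change in the fit of all 4 libraries, was compared with 8490 genes of at least 10 CPM for likeness over the 4 libraries. The nearest were SMCHD1, ERCC6L and MBNL1, with root mean square differences of 0.024, 0.026 and 0.026 in centered log2 CPM. MBNL1, an RNA-binding splicing regulator, had 194 and 155 CPM in control and 252 and 184 CPM in knockdown libraries, the same order of libraries as DICER1. With 4 libraries such likeness is a description of their order only.

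The rest of the pathway was read from 5 lists of 59 genes, of which 56 were tested. None was called and none had an unadjusted p under 0.05, 29 were higher and 27 lower, and the median log2 fold change was 0.0043. In CPM, the groups did not overlap in 9 genes that were higher and 6 that were lower, 15 of 56 beside 26% of all tested genes. The lists include ADAR, the targeted gene, which is among these 6. Of the 14 other double-stranded RNA-binding proteins tested, 7 were higher and 7 lower, with ADAR itself among the lower. EIF2AK2, which encodes the double-stranded RNA-activated kinase PKR and was named after its value was seen, had the smallest p among these 14. It had 123 and 149 CPM in control and 116 and 58.3 CPM in knockdown libraries, so that NK shADAR1 replicate 2 was the low one. The difference was -0.64 on the log2 scale (standard error 0.30, unadjusted p = 0.0543 from edgeR). The 13 microprocessor cofactors and primary transcript binders had a median of 0.035. ERH, a small DGCR8-binding protein also named after its values were seen, had 74.0 and 204 CPM in control and 104 and 190 CPM in knockdown libraries, so that replicates differed more than groups.

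The 18 genes of export, Argonaute loading and silencing had a median log2 fold change of -0.050, 7 higher and 11 lower. XPO5, which encodes exportin 5, had 181 and 185 CPM in control and 149 and 186 CPM in knockdown libraries, a log2 fold change of -0.13 (standard error 0.20). AGO2, the Argonaute that cuts its target, had 115 and 139 CPM in control and 112 and 131 CPM in knockdown libraries, a log2 fold change of -0.062 (standard error 0.20). Precursor tailing and decay was the list with the highest median, 0.17, with 6 of 8 tested genes higher. In 4 of the 8, LIN28B, TUT4, TUT7 and PARN, both knockdown libraries were above both controls in CPM, against 13.3% of tested genes. The double-stranded RNA-binding, microprocessor, export and Staufen lists held 2, 1, 2 and 0 such genes. LIN28B, TUT4, TUT7 and PARN were named after their values were seen. In FPKM, TUT4 (15.4 and 18.1 against 29.2 and 17) and TUT7 (4.45 and 3.54 against 5.87 and 4.39) overlapped between groups, while LIN28B and PARN did not. LIN28B and the uridylyl transferases TUT4 and TUT7 each act on let-7 precursors, and PARN trims RNA ends. TUT4 had 50.2 and 54.4 CPM in control and 89.4 and 59.4 CPM in knockdown libraries, with a log2 fold change of 0.51 (standard error 0.23, unadjusted p = 0.0528 and adjusted p = 1.00 from edgeR). LIN28B had 31.6 and 31.5 CPM in control and 37.2 and 35.2 CPM in knockdown libraries, a log2 fold change of 0.20. The 3 Staufen-mediated decay partners, UPF1, UPF2 and PNRC2, overlapped between groups, with log2 fold changes of -0.29, 0.46 and 0.038.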

How the data were processed

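RNA-seq of 4 NK-92 libraries was analysed, 2 per group. The deposited table holds estimated counts, not scaled for depth, and FPKM, which the authors scaled by transcript length and library size. Per the labels, reads were filtered with fastp 0.18.0. The aligner, counting program, build and annotation are not given in the sources used here. Symbols matched 20301 of 20323 identifiers. After rounding and filterByExpr (minimum count 10), 11810 genes entered edgeR 4.0.16 (R 4.3.3) with TMM factors, the quasi-likelihood fit and no covariate. Standard errors are the log2 fold change over the square root of F. Totals ran from 37881704 to 39960491, and the spread between 2 libraries per group limits precision. The series text calls the replicates independent, and no label ties a number to a batch. Alternatives used DESeq2 1.42.0, limma 3.58.1 on log2 of FPKM plus 1 or 0.1 (at least 1 FPKM in 2 libraries), other scalings and filters, a replicate block, a length offset (splines, 4 degrees of freedom) and each library left out. Scripts were tested on simulated data. The genes and lists were chosen with earlier results of these data known. Named genes are the 9 genes, ADAR, XPO5, AGO2, pathway genes at an unadjusted p under 0.05, and the 3 genes nearest in pattern to the gene with the largest fold change; others are said to be named after their values were seen. A planned partner gene and its ratio are not reported here.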

Additional observations from a re-analysis of the deposited data

How the results depend on the processing

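Of the 126 log2 fold changes recomputed for the 9 genes under 14 alternatives, 119 kept their direction, and 0 of the 9 genes was called or had an unadjusted p under 0.05 under any of them. The 7 that turned came from leaving out 1 library, where an arm of 1 library is assumed to vary like the other group. The other alternatives used the same 4 libraries, so they are not independent checks of direction. With 1 library left out, values ran from -0.30 to 0.10 for ILF2, from -0.035 to 0.44 for DHX9, from -0.092 to 0.034 for TARBP2, from -0.082 to 0.17 for DROSHA and from -0.10 to 0.062 for DGCR8. Over all tested genes, calls went from 0 to between 1 and 47 with 1 library left out (47 and 2 without NK scramble replicates 1 and 2, 16 and 1 without NK shADAR1 replicates 1 and 2), to 213 without adjustment and to 13 with the replicate number as a block. Log2 CPM correlated at r = 0.981 within each group, and at 0.981 to 0.989 between libraries of different groups. Same-numbered libraries deviated together (r = 0.308 over genes), but with 2 pairs they share only a number. In edgeR the block raised genes at an unadjusted p under 0.05 from 293 to 681 and changed no call among the 9. The log2 difference of STAU1 to STAU2 was -0.39 with CPM in place of FPKM. The cause of these shifts was not tested. Depth does not limit the 9 genes, the lowest of which, TARBP2, had at least 765 counts.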
